A study of Mus musculus with 4 samples.

Results

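The Hox genes of the a, b, c and d clusters were taken as all genes whose symbol in the platform's probe-to-gene table is Hox, the cluster letter and a number, with antisense transcripts left out. That rule found 33 of the 39 Hox genes in the RefSeq table, measured by 48 probe sets that name a single gene, out of 18193 genes with such probe sets on the array. The Hoxa and Hoxb clusters had 9 genes each, Hoxc 7 and Hoxd 8. The other Hox genes were not analysed here, nor were 3 probe sets that name a pair of neighbouring Hox genes.

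Expression was measured on 4 Affymetrix Mouse430_2 arrays of entire embryonic mouse kidneys at E14.5 or Theiler stage 22, 2 wild-type and 2 null for Wnt4. Per the labels, the mutant arrays carry the Wnt4tm1Amc allele, come from strain 129 and hold a pool of 12 kidneys each, and the wild-type arrays come from strain CD-1 and hold a pool of 2 kidneys each. A protocol text shared by all arrays speaks of CD-1 matings. Wnt4 is a secreted signal that kidney mesenchyme needs to form renal vesicles, from which nephrons grow, and the study set the genotypes against each other to find what vesicles and their derivatives express. Genotype, strain and pool size cannot be told apart in this design. Whether pools of a genotype hold different litters is not given in the labels, and p-values therefore reflect only how far these pools differ, which may be technical.

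Hox genes encode homeodomain transcription factors that lie in clusters on separate chromosomes and give cells their position along the body axis. Genes at the same place in different clusters descend from a common ancestor and form a paralogue group, numbered 1 to 13 from the head end to the tail end. In the kidney, genes of group 11 act together with Eya1 and Pax2 in the metanephric mesenchyme to switch on Six2 and Gdnf and so to call out the ureteric bud, genes of group 10 act in the stroma, and Hoxb7 is a marker of the ureteric bud. Hox proteins bind DNA with TALE homeodomain partners of the Pbx, Meis and Pknox families.

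The targeted gene, Wnt4, read 1885 and 1770 in the wild type (replicates 1 and 2, the order used throughout) against 406 and 272 in the mutant at its brighter probe set. Its groups did not overlap, and the level was 5.28-fold lower in the mutant (limma adjusted p = 0.000196). All signals are the authors' scaled intensities, and all fold differences and log2 differences (mutant minus wild type) are of log2(signal + 16), which understates the change of dim probe sets. A probe set was tested if its mean lay outside the lowest 40%, and it was said to rise or fall if its adjusted p was under 0.05.

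Most Hox genes did not differ past that threshold between kidneys with and without Wnt4. Of the 48 Hox probe sets, 39 were tested, and they stood for 28 of the 33 genes. Of these 39, 3 fell and 0 rose in the mutant, which is 7.69% of them, against 10.8% of all 27022 probe sets tested (5.39% lower and 5.41% higher). Genotypes did not overlap at 29 of the 39, that is 74.4% against 54.1% of all. The 3 that fell were single probe sets for Hoxb2, Hoxd8 and Hoxa5. With each gene represented by its brightest tested probe set, only Hoxb2 of the 28 genes fell and 0 rose by limma, that is 3.57%, against 12.5% of 13432 genes (5.82% lower and 6.7% higher). At an unadjusted limma p under 0.05, 4 of the 28 genes were lower and 6 higher, together 35.7% against 28.4% of all genes. The count of 0 that rose did not hold without wild-type replicate 2, a fit that leaves 1 wild-type array. The log2 difference was then 0.57 at a Hoxb3 probe set (0.37 with all arrays) and 1.5 at a Hoxc5 probe set (0.96 with all arrays). That Hoxc5 probe set had signals of 43.9 and 110 in the wild type and 115 and 201 in the mutant. Its wild-type mean lies below 94.2, the level that the lowest mean kept by the filter corresponds to, so it was tested through the mutant arrays. The brightest Hoxc5 probe set read 0.24 with all arrays and did not pass. In bulk kidneys, a smaller share of the cells that express a gene and less of its RNA per cell cannot be told apart.

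Differences of Hox genes were small at their brightest tested probe sets. Dimmer tested probe sets of Hoxa5 and Hoxc5 read 2.39-fold lower and 1.94-fold higher, the second not past the threshold. At the brightest probe sets of the 28 genes the largest difference was 1.56-fold. The 95% interval of the difference lay inside 2-fold in either direction for 26 genes, 92.9% against 81.7% of all tested genes. It lay inside the narrower limit of 1.5-fold for 12 genes, 42.9% against 47.8% of all. The mutant and wild-type arrays did not overlap for 21 of the 28 genes, 10 lower and 11 higher, that is 75% against 57.1% of all tested genes (28% lower and 29.1% higher). The median log2 difference over the 28 genes was 0.04, against 0.0003 over all tested genes. Its sign is not settled: it was -0.18 when all probe sets of a gene were averaged, -0.02 with the lowest 60% of probe sets left out and -0.03 without mutant replicate 2.

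**Figure D1:**
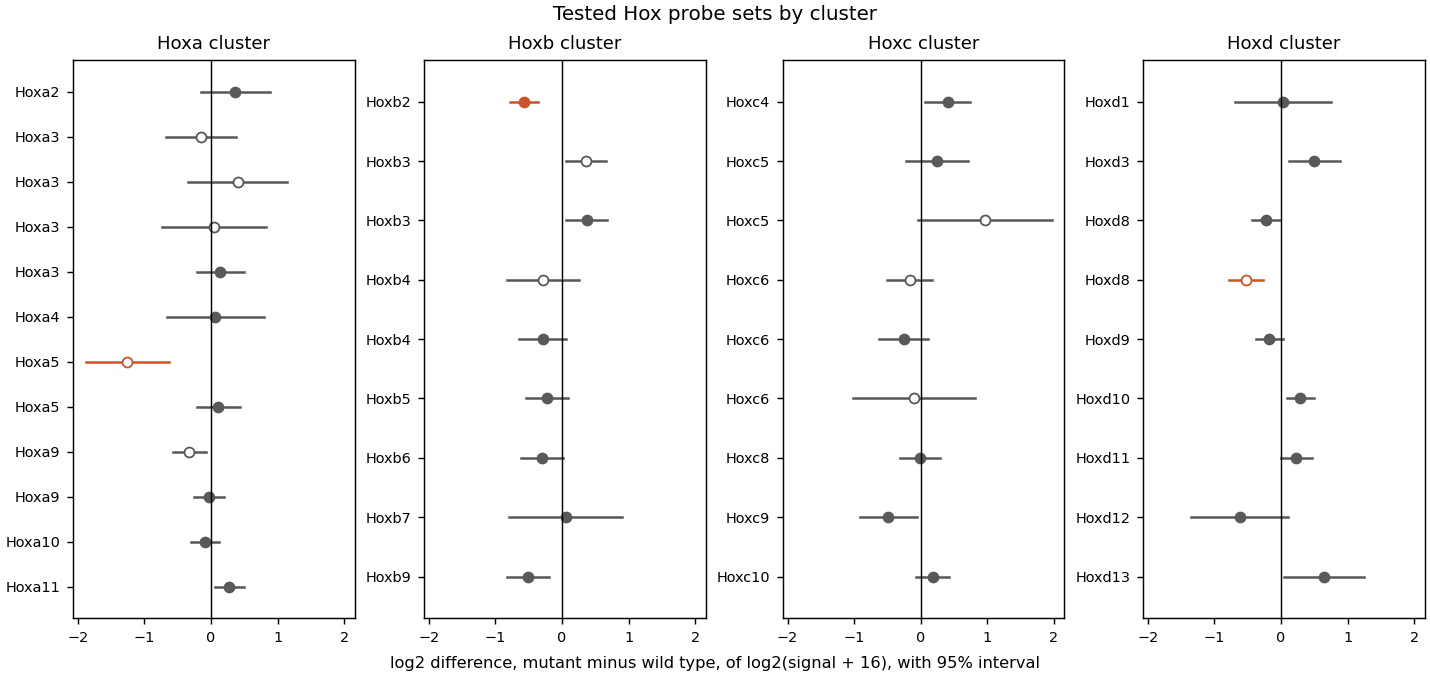
Log2 difference (mutant minus wild type, x axis) of the 39 tested Hox probe sets, in a panel for each cluster with genes in order of their number; points are estimates, lines are 95% intervals from the limma fit, filled points mark the probe set that represents its gene and orange marks the 3 probe sets past the threshold. The orange points, for Hoxa5, Hoxb2 and Hoxd8, all lie below 0, and most other intervals cross 0 or reach close to it.

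Hoxb2, known for its part in patterning the hindbrain, had the smallest p of the Hox genes. Its signal was 2057 and 2146 in the wild type against 1435 and 1392 in the mutant. Both mutant arrays were below both wild-type arrays, and the means were 2102 ± 63.2 (SD, n = 2) and 1413 ± 30.8 (n = 2). The log2 difference was -0.57 ± 0.09 (SE), a 1.48-fold fall (limma adjusted p = 0.00731). Leaving out mutant replicate 2 ended the call (adjusted p = 0.0564), as did a variance model with no intensity trend (0.0884), and it held in the other alternatives, where the lowest adjusted p was 0.00272.

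Hoxd8, a gene of the middle of the Hoxd cluster, was read by a pair of probe sets. The dimmer one, whose name ends in _s_at because its probes match more than a single transcript, had signals of 1642 and 1539 in the wild type and 1174 and 1031 in the mutant. The groups did not overlap there, and the level fell by 0.53 ± 0.11 (SE) on the log2 scale, a 1.44-fold difference (limma adjusted p = 0.0205). The brighter one had 2226 and 2465 in the wild type and 1992 and 2002 in the mutant, also without overlap, and its difference of -0.23 ± 0.09 did not pass (adjusted p = 0.17). The call at the dimmer probe set ended when mutant replicate 2 was left out (adjusted p = 0.148), after median centring (0.071) and with no intensity trend (0.125). With all probe sets of the gene averaged, Hoxd8 passed (log2 difference -0.38, adjusted p = 0.0286).

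Hoxa5, which is known for its part in lung and axial patterning, gave unlike values at its probe sets. At the dimmer one, of the _x_at type whose probes may also match other transcripts, signals were 384 and 582 in the wild type and 150 and 238 in the mutant. Both mutant arrays were lower there, and the log2 difference was -1.25 ± 0.27 (SE), a 2.39-fold fall (limma adjusted p = 0.0244). At the brighter one, signals were 962 and 1116 in the wild type and 1007 and 1248 in the mutant, which overlap, with a difference of 0.11 ± 0.14 (adjusted p = 0.678) and a 95% interval of -0.20 to 0.43. The fall at the dimmer probe set did not pass without wild-type replicate 2 (0.0542), without mutant replicate 1 (0.0741), with no filter (0.0642), without the intensity trend (0.114) or with all probe sets of the gene averaged (0.1). Which of the probe sets follows Hoxa5 RNA was not tested.

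Hoxb9 lay just outside the threshold. It had signals of 664 and 713 in the wild type and 506 and 455 in the mutant, without overlap, and a log2 difference of -0.51 ± 0.14 (SE; limma adjusted p = 0.053). It passed with the lowest 60% of probe sets left out (adjusted p = 0.0451), without probe sets of the _x_at and _s_at types (0.0486) and with all probe sets of a gene averaged (0.0365), settings in which fewer features were tested.

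**Figure D2:**
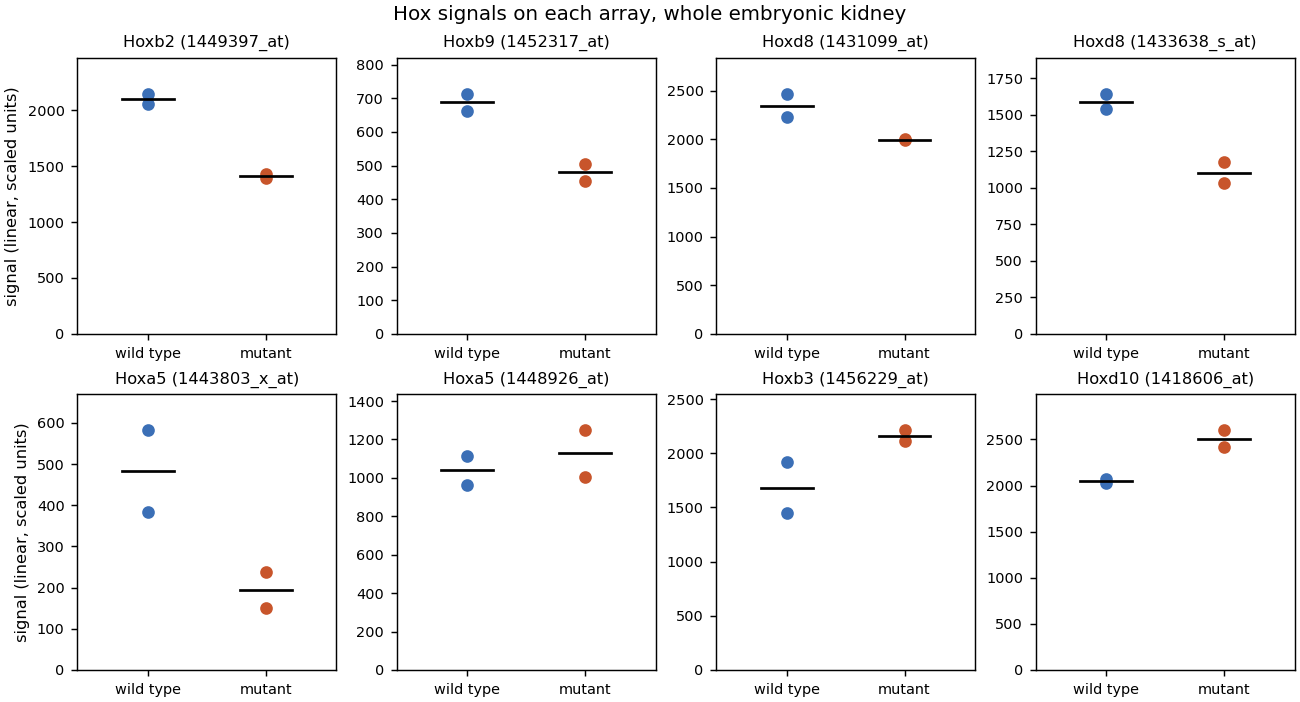
Signal on each array (y axis, linear scaled units starting at 0) in wild-type (blue) and mutant (orange) kidneys for 8 Hox probe sets; points are arrays and black lines group means. Groups do not overlap in any panel but that of the brighter Hoxa5 probe set, where 1007 on a mutant array lies between the wild-type values of 962 and 1116.

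Sequences upstream of the start sites are shown for the genes whose probe sets fell and for Hoxd10, a gene of the same cluster as Hoxd8 with a difference of the other sign; the RefSeq promoter table (GRCm38.p6) has entries for 19 of the 33 Hox genes, and Hoxb2 is not among those matched. Each run is the 250 bases before the annotated start, 5′ to 3′ on the gene's strand. Capitals mark matches, on either strand, to TTTATG (a core recognised by Cdx factors), TGATNNAT (a Pbx and Hox composite), AGGTCA (a nuclear receptor core, also bound by retinoic acid receptors) and CTTTGAT (a core of the TCF/LEF factors of Wnt signalling).
Hoxd8 (chr2:74704365-74704614, plus strand): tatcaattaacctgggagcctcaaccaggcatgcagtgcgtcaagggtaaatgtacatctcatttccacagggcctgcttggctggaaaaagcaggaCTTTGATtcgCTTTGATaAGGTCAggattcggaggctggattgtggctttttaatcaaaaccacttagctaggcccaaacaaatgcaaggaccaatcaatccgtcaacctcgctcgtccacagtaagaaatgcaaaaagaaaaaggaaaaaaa
Hoxd10 (chr2:74691641-74691890, plus strand): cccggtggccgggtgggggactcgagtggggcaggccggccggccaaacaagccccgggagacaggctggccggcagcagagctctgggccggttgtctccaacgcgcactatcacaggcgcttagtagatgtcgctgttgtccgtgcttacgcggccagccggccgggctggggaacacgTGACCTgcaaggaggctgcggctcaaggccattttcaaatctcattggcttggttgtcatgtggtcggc
Hoxa5 (chr6:52204588-52204837, minus strand): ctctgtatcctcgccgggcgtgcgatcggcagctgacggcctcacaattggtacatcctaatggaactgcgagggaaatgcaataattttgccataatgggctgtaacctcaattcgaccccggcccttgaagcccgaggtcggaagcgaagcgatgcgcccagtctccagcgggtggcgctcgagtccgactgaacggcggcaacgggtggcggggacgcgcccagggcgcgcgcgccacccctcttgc
The Hoxd8 run holds 2 matches to CTTTGAT and 1 to AGGTCA, none of them overlapping, the Hoxd10 run holds 1 match to AGGTCA, and the Hoxa5 run holds 0 matches. The motif CTTTGAT was added after the Hoxd8 sequence had been seen. Over all 32851 promoters of the table, 3.21% held CTTTGAT at least once in the same window and 0.0822% held it 2 or more times, and of the 21 promoters of the Hox genes Hoxd8's was the only one to hold it. AGGTCA was in 14% of all promoters and in 5 of the 21, TTTATG in 10.8% and in 3, and TGATNNAT in 7.68% and in 3. A match is a description of the letters, not a bound site.

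By cluster, 1 of 7 tested Hoxb genes, Hoxb2, passed the threshold. Over all tested genes 12.5% passed, a share at which so few genes cannot set a cluster apart. Of the 7, 5 had negative log2 differences, all 5 without overlap between the genotypes (28% of all tested genes are lower without overlap), and the median was -0.29. Hoxb4, Hoxb5 and Hoxb6 had differences of -0.29, -0.23 and -0.30 (limma adjusted p = 0.289, 0.351 and 0.225). Hoxb3, which lies between Hoxb2 and Hoxb4 by number, differed in sign from both. Its 2 probe sets read 0.36 and 0.37, and the brighter had signals of 1446 and 1916 in the wild type and 2214 and 2112 in the mutant, without overlap (adjusted p = 0.122). Hoxb7 had signals of 92.0 and 96.8 in the wild type and 70.4 and 136 in the mutant, so the groups overlap, and its 95% interval of -0.79 to 0.91 on the log2 scale leaves even a change of 1.5-fold in either direction unsettled. The Hoxb median stayed between -0.35 and -0.23 over all alternatives run.

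In the Hoxa cluster 0 of 7 tested genes passed, and 3 had groups without overlap, all higher, against 57.1% of all genes without overlap in either direction. Hoxa9 and Hoxa10, at their brightest probe sets, had 95% intervals of -0.26 to 0.19 and -0.30 to 0.12, inside 1.5-fold. Hoxa9 signals there were 2669 and 3002 on the wild-type and 2653 and 2886 on the mutant arrays, which overlap. A dimmer Hoxa9 probe set read 1098 and 1144 against 864 and 919, lower on both mutant arrays, with a difference of -0.33 ± 0.11 (SE) that did not pass (adjusted p = 0.0991). Hoxa3 had 4 tested probe sets, with differences from -0.15 to 0.40 and no call. The cluster's median was 0.11, and -0.04 with all probe sets of a gene averaged.

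In the Hoxc cluster 0 of 6 tested genes passed. Hoxc4 had signals of 426 and 501 on the wild-type and 617 and 614 on the mutant arrays, higher without overlap, and a difference of 0.40 ± 0.15 (SE; limma adjusted p = 0.124). Hoxc9 had signals of 396 and 477 against 273 and 342, lower without overlap, and a difference of -0.49 ± 0.19 (adjusted p = 0.149). Hoxc8, active in the thoracic part of the body axis, had nearly equal signals on all arrays, 566 and 554 in the wild type and 552 and 561 in the mutant, with a 95% interval of -0.31 to 0.29. The 3 Hoxc6 probe sets read -0.26, -0.17 and -0.10. The cluster's median was 0.09, and -0.01 with no filter and with all probe sets of a gene averaged.

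In the Hoxd cluster 0 of 8 genes passed at their brightest probe sets, and 7 had groups without overlap, 3 lower and 4 higher, where the share over all genes is again 57.1%. Along the cluster, values went up and down between neighbours: Hoxd8 and Hoxd9 were lower in the mutant, with differences of -0.23 and -0.18, and Hoxd10 and Hoxd11 higher, with 0.29 and 0.23. Hoxd9 had signals of 2976 and 2709 on the wild-type and 2531 and 2492 on the mutant arrays. Hoxd10 had 2071 and 2025 against 2600 and 2419, 1.22-fold apart (limma adjusted p = 0.0792). Hoxd3 had 336 and 299 against 425 and 488, a difference of 0.50 ± 0.17 (SE; adjusted p = 0.102). The cluster's median was 0.13 and ran from 0.03 to 0.24 over all alternatives run.

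By paralogue group, the members of a few groups lay on the same side of 0, none of them past the threshold. All 4 tested genes of group 9 had negative differences, of -0.03 for Hoxa9, -0.51 for Hoxb9, -0.49 for Hoxc9 and -0.18 for Hoxd9, with no overlap between the genotypes for the last 3. All 3 genes of group 3 had positive ones at their brightest probe sets, of 0.14, 0.37 and 0.50 for Hoxa3, Hoxb3 and Hoxd3, without overlap. For Hoxa3 the groups only just parted, with 443.9 and 398.8 in the wild type and 444.6 and 485.7 in the mutant (limma adjusted p = 0.64). The next brightest Hoxa3 probe set read -0.15, with overlap. Of all tested genes, 57.1% had no overlap, 28% lower and 29.1% higher, and these groups were picked after their values were seen. In group 2, Hoxa2 (0.37, limma adjusted p = 0.357) and Hoxb2 (-0.57) had opposite signs. Whether groups differ from each other was not tested, since their genes share arrays and are not replicates. Medians were 0.14 for groups 1 to 4, -0.12 for groups 5 to 8 and -0.03 for groups 9 to 13. The first ran from 0.06 to 0.37 and the second from -0.26 to -0.06 over all alternatives, and the third changed sign (from -0.18 to 0.05).

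**Figure D3:**
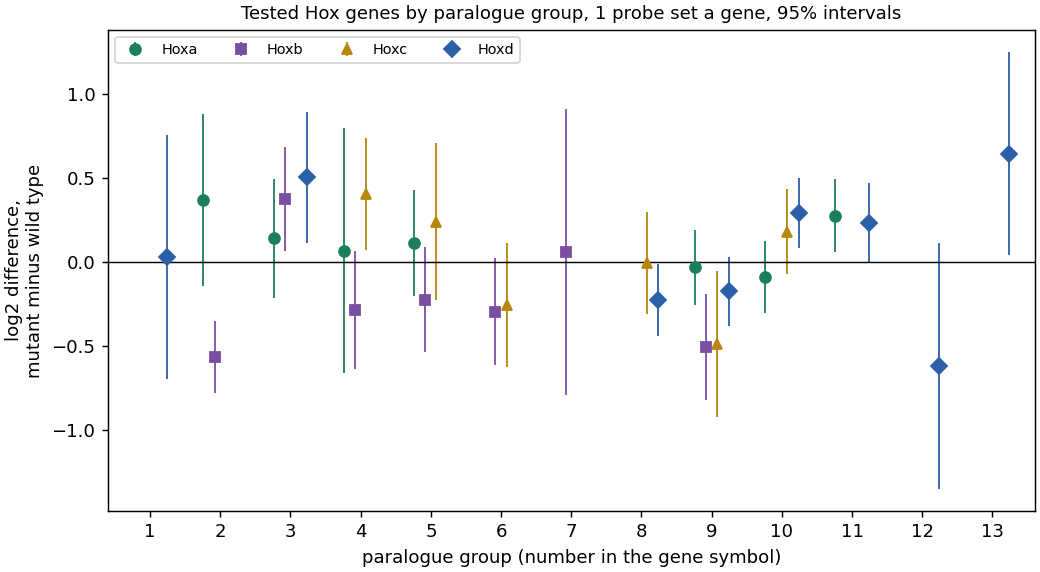
Log2 difference (mutant minus wild type, y axis) of the 28 tested Hox genes against paralogue group (x axis), with a colour and symbol for each cluster; points are the estimates at each gene's brightest tested probe set and lines the 95% intervals. The 4 genes of group 9 lie below 0 (-0.51 to -0.03) and those of groups 3 and 11 above it, while groups 2, 4, 5 and 10 hold genes on both sides.

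The tested Hox genes of groups 10 and 11, at their brightest probe sets, were read at levels well above the filter on all arrays, also without Wnt4. Hoxc11 has no single-gene probe set and was not read. Such levels were not particular to these groups: Hoxa9, Hoxd9, Hoxd8, Hoxb2 and Hoxb3 had higher wild-type means than Hoxa11 and Hoxd11. Hoxa11 had signals of 1444 and 1430 in the wild type and 1793 and 1690 in the mutant. Both mutant arrays were higher, and the difference was 0.27 ± 0.09 (SE), a 1.21-fold higher level that did not pass (limma adjusted p = 0.11). Hoxd11 had 1068 and 1051 against 1278 and 1213, also without overlap, and a difference of 0.23 ± 0.10 (adjusted p = 0.205). The 95% intervals, 0.06 to 0.49 for Hoxa11 and -0.01 to 0.47 for Hoxd11, hold no fall of 1.5-fold. Of group 10, Hoxa10 had 3680 and 4216 against 3686 and 3716, which overlap (difference -0.09 ± 0.09), and Hoxc10 had 1623 and 1373 against 1688 and 1696 (0.18 ± 0.11, adjusted p = 0.361). Antisense RNA of Hoxa11, Hoxa11os, was 844 and 715 on the wild-type and 971 and 874 on the mutant arrays, 0.24 ± 0.13 higher (adjusted p = 0.297).

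Genes of groups 12 and 13, at the tail end of the clusters, were mostly near the bottom of the scale. The probe sets for Hoxa13, Hoxb13 and Hoxc13 were not tested because they lay in the lowest 40%, as did those for Hoxa7 and Hoxb1. Signals of the single Hoxb13 probe set ran from 6.22 to 10.5 over the 4 arrays and those of Hoxc13 from 11.3 to 21.9. Of the 2 Hoxd13 probe sets, one ran from 10.2 to 16.7 and was not tested. The other had 103 and 116 on the wild-type and 171 and 188 on the mutant arrays, without overlap, and a difference of 0.64 ± 0.26 (SE; limma adjusted p = 0.17). Hoxd12 had 113 and 129 against 68.7 and 77.7, a difference of -0.62 ± 0.32 (adjusted p = 0.27). The lowest mean level kept by the filter corresponds to a signal of 94.2. The Hoxd12 signals lie close to it, below it in the mutant, and the wild-type signals of the tested Hoxd13 probe set lie just above it. The mutant signals of that Hoxd13 probe set lie above the medians of their arrays, 137.5 and 159.3.

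Other transcripts from within the clusters were read as well. Hoxb5os, an antisense RNA of the Hoxb cluster that the rule leaves out, fell from 1054 and 1337 on the wild-type arrays to 671 and 749 on the mutant arrays, a log2 difference of -0.73 ± 0.14 (SE; limma adjusted p = 0.0153). Hoxb5 itself had 695 and 608 against 559 and 548, lower on both mutant arrays, and did not pass. Hoxd3os1 had 398 and 356 against 500 and 651 (0.58 ± 0.17, adjusted p = 0.0721). These antisense genes were chosen after their values were seen. Of 10 tested genes flanking the clusters, 0 passed by limma, where 12.5% of all tested genes did, and their median log2 difference was -0.14. They include Skap1 and Skap2 beside Hoxb and Hoxa, Mtx2 and Lnpk beside Hoxd and Cbx5 beside Hoxc. An unadjusted limma p under 0.05 was reached by 0 of them, against 28.4% of all tested genes.

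Some genes for partners of Hox proteins rose in the mutant. Of 8 tested TALE cofactor genes, 4 rose (Meis1, Meis2, Meis3 and Pknox2) and 0 fell, with a median log2 difference of 0.62. Over all 13432 tested genes, 6.7% rose and 5.82% fell. Stroma markers moved the same way, with 6 of 11 higher and Meis1 itself among them, and the part of that in these values was not tested. Meis2 had signals of 4157 and 4625 on the wild-type and 8132 and 7412 on the mutant arrays, a 1.77-fold rise (limma adjusted p = 0.00118), and 2 further probe sets rose by 0.98 and 1.03 on the log2 scale. The fourth tested probe set of Meis2 had wild-type signals of 45.7 and 57.6, below the level kept by the filter, and was tested only through the mutant arrays. Meis1 had 1902 and 1953 against 3571 and 3518, a 1.83-fold rise (adjusted p = 0.0006), and 1 of its 3 tested probe sets did not pass (-0.13). Meis3 rose by 1.67-fold (adjusted p = 0.0461) and Pknox2 by 1.59-fold (0.0276), with a second Pknox2 probe set at -0.32 that did not pass.

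The calls of Meis3 and Pknox2 did not hold in 5 alternatives each, among them leaving out mutant replicate 1, which gave adjusted p-values of 0.0839 and 0.191, and mutant replicate 2, which gave 0.204 and 0.0591. Meis3 also lost its call when wild-type replicate 2 was left out (0.0871), and Pknox2 with its probe sets averaged (log2 difference 0.18, adjusted p = 0.597). Those of Meis1 and Meis2 were lost in 1 each, Meis1 with all probe sets of a gene averaged (0.0878) and Meis2 without the intensity trend (0.0572). Pbx3 and Pbx2 did not pass, with differences of 0.04 and 0.20, and neither did Pknox1 (-0.10) and Pbx4 (0.57).

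Of 22 tested genes that control Hox transcription, which include the Polycomb and Trithorax groups and retinoic acid genes, 1 fell and 2 rose, with a median of 0.12. That share is close to the 12.5% of all genes called. Crabp2, which binds retinoic acid in the cytosol, had 1852 and 1647 on the wild-type and 4049 and 4070 on the mutant arrays, a 2.31-fold rise (limma adjusted p = 0.000223). Aldh1a2, which makes retinoic acid, had 5922 and 5432 against 8138 and 7868, a 1.41-fold rise (adjusted p = 0.00781), lost without mutant replicate 1 (0.0637) and without the intensity trend (0.12). Cyp26b1, which breaks retinoic acid down, fell from 431 and 367 to 55.3 and 52.1 (adjusted p = 0.000665). Its mutant signals lie below 94.2, the level that the lowest mean kept by the filter corresponds to, so it was tested through its wild-type level and its size is not settled: the log2 difference was -2.57, -2.87 with a pseudocount of 1 and -1.97 with 64, and it was not tested with the lowest 60% left out. The retinoic acid receptor genes Rara, Rarb and Rarg did not pass, with differences of -0.26, 0.26 and 0.26 (adjusted p = 0.744, 0.152 and 0.348), and Cyp26a1 lay below the filter. The Polycomb genes Ezh2 and Eed had differences of -0.06 and -0.16 and did not pass.

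**Figure D4:**
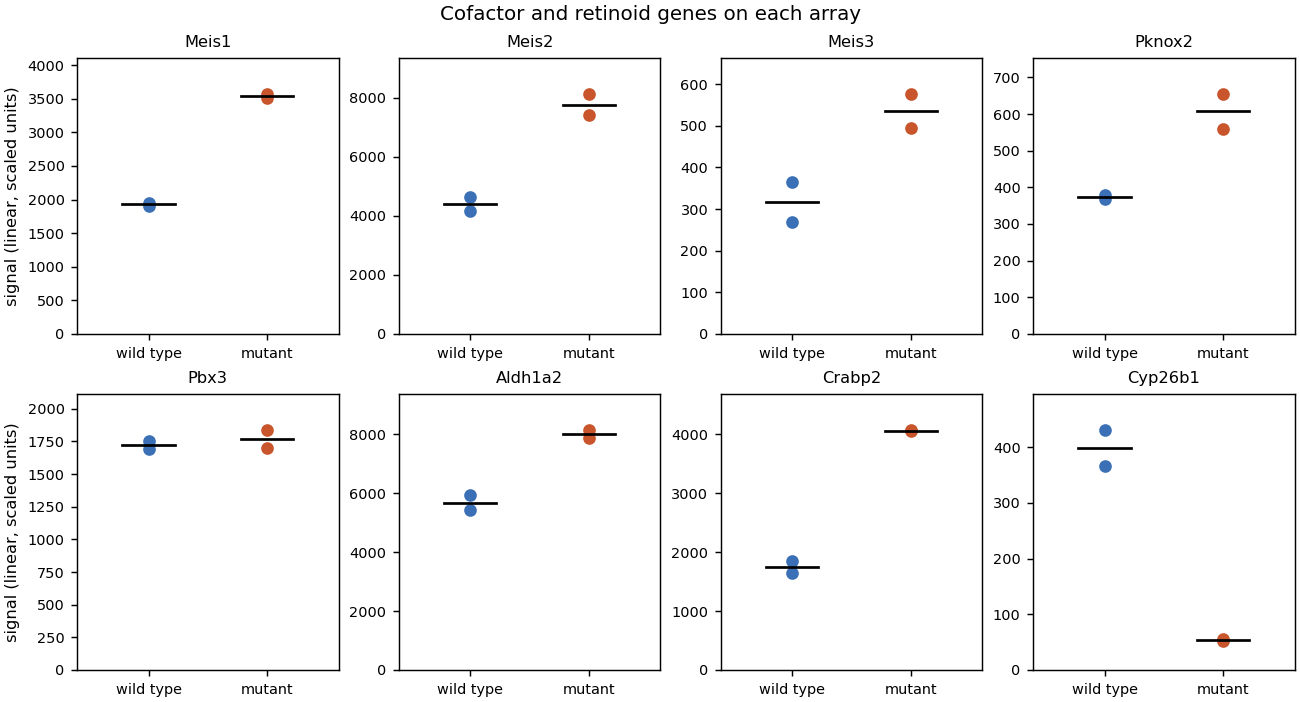
Signal on each array (y axis, linear scaled units starting at 0) in wild-type (blue) and mutant (orange) kidneys for 5 TALE cofactor genes and 3 genes of retinoic acid; points are arrays and black lines group means. Meis1, Meis2, Meis3, Pknox2, Aldh1a2 and Crabp2 are higher on both mutant arrays, Cyp26b1 is lower (52.1 and 55.3 against 367 and 431), and Pbx3 overlaps between the groups.

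Of 9 tested genes of the early kidney network in which the group 11 Hox proteins act, 1 fell and 1 rose. Over all tested genes 12.5% were called, 5.82% lower and 6.7% higher, and 9 genes are too few to set the network apart. Itga8, an integrin of the mesenchyme, fell and Osr1, a zinc finger factor of early kidney mesenchyme, rose. Six2 had signals of 3760 and 2896 on the wild-type and 3235 and 2670 on the mutant arrays, which overlap, and Gdnf had 1222 and 747 against 889 and 1211, which overlap too. Itga8 had 2943 and 2942 against 2030 and 2320, a 1.35-fold fall (limma adjusted p = 0.0256). A dimmer Itga8 probe set fell by 0.85 on the log2 scale (adjusted p = 0.00284), and the mean over both fell by 0.64 (0.00451). The brighter probe set lost its call when mutant replicate 1 was left out (0.208), after median centring (0.118), with no filter (0.0519) and with no intensity trend (0.163). Osr1 had 444 and 380 against 713 and 760, a 1.76-fold rise (adjusted p = 0.0102), and the call ended when mutant replicate 2 was left out (0.0625) and with no intensity trend (0.0621).

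Markers of several cell types moved with the genotype in these whole organs. Sums of signal given here are over all listed markers on the array, those below the filter included. Counts of markers that rose or fell stand beside 6.7% and 5.82% of all tested genes. Of 13 tested markers of the renal vesicle and nephron, 13 fell, the targeted gene Wnt4 among them. The summed signal of that list was 26168 to 27468 on the wild-type and 9177 to 9394 on the mutant arrays. Of 11 stroma markers, 6 rose and 0 fell, with Meis1 among them, and the sum went from 53663 to 58234 up to 74978 to 77763. Of 10 tested skeletal muscle markers 9 rose, with sums of 1816 to 2969 against 9477 to 9682, and 6 more, among them Myf5 and Myf6, lay below the filter. Of the 9, Myog had wild-type signals of 126 and 40.3 and Myl1 of 111 and 35.4. Their wild-type means lie below 94.2, the level that the lowest mean kept by the filter corresponds to, so they were tested through the mutant arrays. Of 6 tested limb bud markers, Prrx1 and Shh rose, while Tbx4, Tbx5 and Hand2 lay below the filter. Sums were 1622 to 1999 and 3394 to 3472. Prrx1 had 339 and 322 on the wild-type and 1085 and 1280 on the mutant arrays, and Shh 502 and 473 against 1145 and 1013. Together they hold most of the rise of the limb bud sum, which cannot be read as a shift of limb tissue. Among 14 ureteric bud and collecting duct markers 4 fell and 2 rose (sums of 23857 to 25901 and 20766 to 22246), and among 10 nephron progenitor markers 3 fell and 3 rose, Itga8 and Osr1 among them (19321 to 19329 and 15876 to 16379). Of 5 tested neural markers 1 fell and 1 rose (1071 to 1505 and 2129 to 2293), of 6 of cartilage and axial skeleton 1 fell and 2 rose (5813 to 6088 and 5410 to 5888), and of 5 of adrenal and gonad 1 fell (3525 to 4265 and 2729 to 3051). The cartilage marker that fell was Uncx, also listed for nephron progenitors, with 3405 and 3012 on the wild-type and 1358 and 1124 on the mutant arrays. In the adrenal and gonad list, Wt1, also of the kidney network, had 3195 and 2496 against 2284 and 1839 and did not pass. Each is a large part of its sum, so these sums cannot be read as shifts of those tissues alone. Among the other called markers, Traf1 of the nephron progenitor list also lay below 94.2 in the wild type and was tested through the mutant arrays. Slc34a1, Hnf4a, Fabp7 and Mc2r lay below it in the mutant and were tested through the wild-type arrays. The part of these shifts in the values of the Hox, Meis and retinoid genes was not tested.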

How the data were processed

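The values were the authors' processed signal intensities, deposited on a linear scale with 1 value for each probe set of an array. Per the submitters' processing notes they come from GCOS, the summary algorithm and scaling target being not given in the sources used here. Per the labels' protocols, 1 round of amplification preceded biotin labelling. The mean trimmed by 2% at each end was 500.0 on every array, and medians ran from 137.5 to 159.3; the number of arrays limits the precision, and 0.33 is the smallest two-sided p of an exact test of 2 against 2. Here signals were taken to log2(signal + 16), 64 control probe sets and the lowest 40% by mean were left out, and 27022 of 45101 probe sets were fitted with limma 3.58.1 in R 4.3.3 (lmFit, eBayes with intensity trend, two-sided, Benjamini-Hochberg over all tested), with 6.16 prior degrees of freedom. The fit was tested on simulated data. Each gene was read at the brightest of its tested probe sets, by mean. Probe sets were named through the platform table, with symbols checked against RefSeq (GRCm38.p6); 34945 named 1 gene, 932 several, and 9211 were not listed. The members and lists were chosen with earlier results of these data known. All Hox genes past the threshold were to be named, and up to 4 called genes of each list by smallest p; others named were chosen after their values were seen. Alternatives: quantile normalization, median centring, pseudocounts of 1 and 64, no filter, the lowest 60% left out, eBayes without trend or robust, no _x_at or _s_at probe sets, a replicate block, gene means, and each array left out. No set test was run.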

Additional observations from a re-analysis of the deposited data

How the results depend on the processing

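Quantile normalization, median centring, pseudocounts of 1 and 64 and a robust fit moved none of the counts of Hox calls by over 1.5 times and none of the medians by more than the replicate spread. Without the intensity trend 0 Hox probe sets and 0 Hox genes fell, and over all probe sets calls went from 2920 to 858; with no filter they were 1991. Hox genes that fell numbered 2 with the lowest 60% left out, 2 without _x_at and _s_at probe sets and 3 with gene means; the set of genes tested also changes there. With no filter the medians were -0.23 for Hoxb, -0.0087 for Hoxc and 0.24 for groups 1 to 4. With the lowest 60% left out they were -0.0207 for all Hox genes, 0.23 for Hoxd, 0.26 for groups 1 to 4 and -0.23 for groups 5 to 8. With gene means they were -0.18 for all, -0.0351 for Hoxa, -0.0087 for Hoxc, 0.23 for Hoxd, 0.37 for groups 1 to 4, -0.26 for groups 5 to 8 and -0.18 for groups 9 to 13. When each array was left out in turn, with the tested probe sets kept, 1 to 3 Hox probe sets fell and 0 to 2 rose, 0 to 1 Hox genes fell and 0 to 1 rose, and over all probe sets there were 1479 to 3927 calls. The medians then ran from -0.0309 to 0.0484 for all Hox genes, 0.0639 to 0.21 for Hoxa, -0.35 to -0.24 for Hoxb, 0.02 to 0.09 for Hoxc, 0.0317 to 0.24 for Hoxd, 0.0639 to 0.32 for groups 1 to 4, -0.11 to -0.0632 for groups 5 to 8 and -0.11 to 0.0517 for groups 9 to 13. With the replicate number as a block 3 Hox probe sets fell and 0 rose, and 2913 probe sets were called in all. The correlation of same-numbered arrays' deviations was -0.017, which cannot show whether these arrays share a preparation or processing day. The cause of these shifts was not tested. Of the 13 called probe sets followed through all alternatives, 0 changed sign. Other genes were not followed singly; Hoxa5 is 0.11 at its brighter probe set and -0.57 with its probe sets averaged. The largest standard errors among Hox probe sets were 0.438 for one of Hoxc5 and 0.396 for one of Hoxc6.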
